A study of Homo sapiens with 6 samples.

Results

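The kinetochore is the protein structure that joins a chromosome to the spindle, and 45 genes of the kinetochore, the centromere and the spindle checkpoint were examined in PANC-1 cells after silencing of METTL16. The genes were chosen by symbol from a list of known components, with earlier results of these data known. All 45 were found once among the 58735 genes of the deposited table. RNA-seq had been performed on PANC-1, an established cell line of human pancreatic ductal adenocarcinoma, in 3 samples with control siRNA (si-NC) and 3 with siRNA against METTL16 (si-METTL16), an RNA methyltransferase that places N6-methyladenosine. All 6 samples carry a transfected siRNA according to their titles, whereas another label calls the control samples WT. The study's methods call the sequenced cells stably transfected, and the time from transfection to RNA extraction is not given in the sources used here. The study lists 3 siRNAs against METTL16, and which of them these samples received is not given either, which limits the si-METTL16 group as a model of METTL16 loss. Both groups come from 1 cell line.

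In a dividing cell, CENPA replaces histone H3 at the centromere and is deposited there by HJURP after the MIS18 complex has prepared the site. The constitutive centromere-associated network, whose subunits carry CENP names, reads CENPA and carries the outer KMN network of KNL1, the MIS12 complex and the NDC80 complex, which binds microtubules with help from the SKA complex. Unattached kinetochores recruit BUB1, BUB1B, BUB3, TTK, MAD1L1, MAD2L1 and the RZZ complex of ZW10, ZWILCH and KNTC1, which together hold back anaphase, while the shugoshins protect sister chromatid cohesion. Many of these genes are transcribed mainly in G2 and mitosis, and their promoters often hold the CHR and CCAAT elements read by the DREAM complex, MuvB with B-MYB or FOXM1, and NF-Y.

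Promoter sequences of the members are shown first, as a description, and their part in the changes was not tested. RefSeq (GRCh38.p14) gave 43 promoter windows for 37 of the 45 genes, each running from 250 bases before the start to 50 bases after it. Below are 140-base stretches of the promoters of the class leaders, meaning, in each role class, the gene with the highest log2 fold change whose promoter holds a CHR match (the shugoshins have none). Capitals mark matches, on either strand, to the CHR (TTTGAA), to CCAAT or to an E2F form (TTTGGCGC, TTTCCCGC, TTTGCCGC or TTTCGCGC), so that TTCAAA and ATTGG are the CHR and CCAAT read from the other strand. They lie at chr11:113773797-113773936, minus strand for ZW10, at chr10:56361240-56361379, minus strand for ZWINT, at chr13:21176533-21176672, minus strand for SKA3, at chr16:81007094-81007233, plus strand for CENPN and at chr2:233854516-233854655, minus strand for HJURP. Each runs 5′ to 3′ on the strand of its gene, from 120 bases before the start to base 20 after it, except that of ZW10, which was moved upstream to hold its match.
ZW10: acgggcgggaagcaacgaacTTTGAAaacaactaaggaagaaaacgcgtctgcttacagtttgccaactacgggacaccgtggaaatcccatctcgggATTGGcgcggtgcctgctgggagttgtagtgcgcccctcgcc
ZWINT: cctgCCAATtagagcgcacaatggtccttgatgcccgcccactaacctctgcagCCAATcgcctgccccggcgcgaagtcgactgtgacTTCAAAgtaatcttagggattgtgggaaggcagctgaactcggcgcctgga
SKA3: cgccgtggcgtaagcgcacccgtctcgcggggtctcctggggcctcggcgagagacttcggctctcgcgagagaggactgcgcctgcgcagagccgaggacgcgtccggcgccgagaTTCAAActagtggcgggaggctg
CENPN: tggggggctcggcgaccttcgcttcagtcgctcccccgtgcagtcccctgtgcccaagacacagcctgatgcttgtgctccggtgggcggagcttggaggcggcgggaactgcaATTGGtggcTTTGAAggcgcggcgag
HJURP: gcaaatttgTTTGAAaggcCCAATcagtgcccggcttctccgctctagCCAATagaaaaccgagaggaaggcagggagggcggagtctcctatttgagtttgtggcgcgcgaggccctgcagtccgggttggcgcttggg
The genes that did not pass the test are shown as well, from 120 bases before the start to base 20 after it. The leaders were chosen for holding a CHR and these genes were not, so the presence of a CHR cannot be compared between both sets of sequences. They lie at chr4:67545484-67545623, minus strand for CENPC, at chr2:24793305-24793444, plus strand for CENPO, at chr16:67847674-67847813, minus strand for CENPT, at chr17:82022859-82022998, minus strand for CENPX, at chr17:5486254-5486393, plus strand for MIS12, at chr1:156212887-156213026, plus strand for PMF1 and at chr1:212791758-212791897, minus strand for NSL1.
CENPC: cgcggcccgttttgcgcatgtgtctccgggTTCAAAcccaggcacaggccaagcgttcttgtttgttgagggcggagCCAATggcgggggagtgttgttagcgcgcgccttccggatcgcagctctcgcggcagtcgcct
CENPO: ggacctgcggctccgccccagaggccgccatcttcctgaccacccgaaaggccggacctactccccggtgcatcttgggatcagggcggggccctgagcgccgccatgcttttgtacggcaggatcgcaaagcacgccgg
CENPT: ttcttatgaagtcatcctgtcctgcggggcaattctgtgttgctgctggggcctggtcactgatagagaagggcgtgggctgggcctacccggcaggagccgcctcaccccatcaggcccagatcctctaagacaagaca
CENPX: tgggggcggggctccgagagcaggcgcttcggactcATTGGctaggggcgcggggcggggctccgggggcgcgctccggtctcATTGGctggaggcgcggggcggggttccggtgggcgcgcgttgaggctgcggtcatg
MIS12: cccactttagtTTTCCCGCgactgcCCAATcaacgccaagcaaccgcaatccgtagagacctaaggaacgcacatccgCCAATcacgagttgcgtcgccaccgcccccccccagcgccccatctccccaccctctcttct
PMF1: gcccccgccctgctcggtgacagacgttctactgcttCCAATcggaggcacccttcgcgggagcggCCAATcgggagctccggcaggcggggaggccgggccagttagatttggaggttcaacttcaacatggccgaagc
NSL1: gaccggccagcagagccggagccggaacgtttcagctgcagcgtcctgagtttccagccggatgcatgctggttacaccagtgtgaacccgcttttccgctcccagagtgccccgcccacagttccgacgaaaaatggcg
The stretches of CENPT, NSL1 and CENPO hold no match, although CENPO has a CHR further downstream, those of MIS12, PMF1 and CENPX hold CCAAT but no CHR (that of MIS12 also an E2F form), and that of CENPC holds both a CHR and a CCAAT.

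Over the full windows, 17 of the 43 member promoters (39.5%) held a CHR, against 15.2% of all 35116 RefSeq promoters. CCAAT was found in 28 of the 43 (65.1%), against 34.6% of all promoters, and both motifs together in 11 (25.6%), against 5.9%. The E2F forms were found in 5 (11.6%), against 3.31%, but in 1 member promoter when the window was shortened to the 150 bases nearest the start. In the full window, 9 promoters (20.9%) held none of the motifs, against 54.3%. By role, a CHR was found in 5 of 11 promoters of the outer KMN network, 4 of 8 of the checkpoint, 3 of 5 of the SKA complex and corona, 2 of 3 of centromere loading, 3 of 13 of the constitutive network and 0 of 3 of the shugoshins. The promoters were not matched for base composition, some belong to the same gene, and a match is a run of letters rather than a bound site. Counted by gene, 14 of the 30 genes that rose and have a promoter window held a CHR, as did 2 of the 7 that did not pass the test, CENPC and CENPO.

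METTL16 itself was measured in CPM, the count scaled by TMM to a common library total. The control samples had 91.5, 96.7 and 101 CPM (si-NC replicates 1 to 3, the order used throughout) and the silenced samples 34.8, 33.9 and 34.9 CPM. The groups did not overlap, and the silenced samples lay below all control samples, at a log2 fold change (log2FC) of -1.48 (SE 0.07, adjusted p = 8.3e-05). The SE is the standard error of the log2FC. Unless another tool is named, each adjusted p was given by the quasi-likelihood test of edgeR and corrected by Benjamini and Hochberg's method over 15089 tested genes, with 0.05 as the threshold. Library totals ran from 15725298 to 18054436 counts, so that 3 counts equal 0.166 to 0.191 CPM. Markers of ductal epithelium were present in all samples (KRT8, KRT18 and the other 6 of 8 listed, summed 3060 to 4140 CPM in si-NC and 3280 to 3580 CPM in si-METTL16), although KRT19 (log2FC -1.40), CDH1 (-1.09), KRT7 (-0.84) and SOX9 fell. Of the other lists, all 4 acinar genes had at most 3 counts in every sample, DCN and LUM of the fibroblast list were at or below 8 counts, and PTPRC, CD3E and LYZ of the immune list were at or below 5. Of the endothelial list, PECAM1 and VWF had at most 3 counts in every sample, and its 3 genes summed to 0.355 to 0.913 CPM in si-NC and 0.183 to 0.389 CPM in si-METTL16. COL1A1 and COL3A1, collagen genes of the fibroblast list, rose with the silencing (summed list 331 to 383 CPM in si-NC and 815 to 856 CPM in si-METTL16), and so did CD68 of the immune list (summed 5.68 to 5.83 and 7.79 to 9.45 CPM). The part of these markers in the results on the 45 genes was not tested.

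Of the 45 genes, all of which passed the filter on low counts, 38 (84.4%) rose after silencing, 0 fell and 7 did not pass the test. Among all genes tested, 35.9% passed the test in either direction, 18.4% were higher and 17.5% were lower. A log2FC of at least 1 with a passed test was reached by 26 of the 45, against 4.4% of all genes. The 3 si-METTL16 values lay above the 3 si-NC values for 38 of the 45, against 25.7% of all genes, and below them for 1, CENPT, against 25.2%. The median log2FC of the 45 was 1.15 (quartiles 0.86 and 1.35), whereas that of all genes was -0.00 (quartiles -0.33 and 0.32). Relative to the si-NC mean, the median of the 45 genes was -0.15, 0.10 and 0.03 on the log2 scale in the si-NC samples and 1.15, 1.14 and 1.03 in the si-METTL16 replicates. In bulk RNA, a larger share of cells in mitosis and more RNA per mitotic cell cannot be told apart, and likewise fewer cells of a type and less RNA per cell. A list of 12 proliferation genes moved by a like amount, with 12 of 12 higher and a median of 1.14. In it, MKI67, a marker of cycling cells, had a log2FC of 0.98 (adjusted p = 0.00114). This list and the 45 genes were chosen with earlier results of these data known. The list also holds CDK1 and CCNB2, which the study reports as increased in silenced PANC-1 cells. It holds MKI67 and PCNA as well, whose proteins the study reports as increased in xenografts of PANC-1 cells with METTL16 knocked down. The count of the list is therefore not independent evidence. The part of proliferation in the rise of the 45 genes was not tested.

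**Figure D1:**
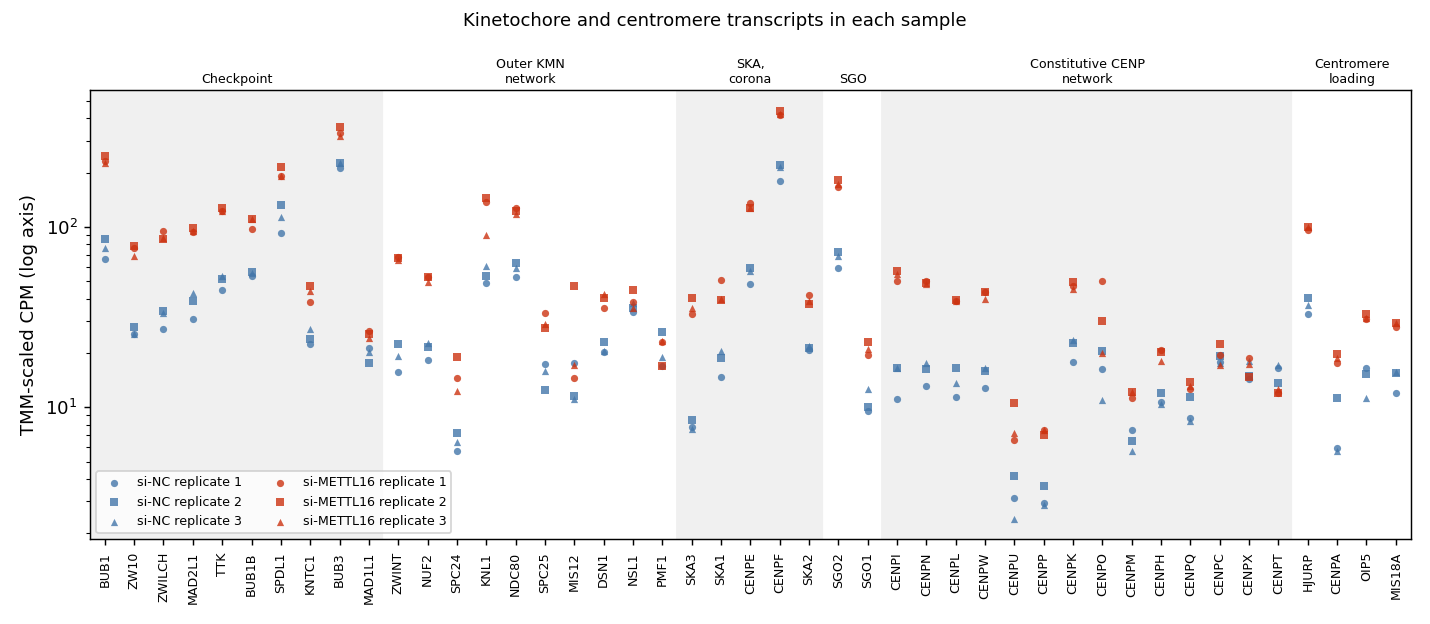
Level of each of the 45 genes in TMM-scaled CPM (vertical log axis) in each of the 3 si-NC (blue) and 3 si-METTL16 (red) samples, with genes grouped by role and ordered by log2FC, and marker shapes for replicates 1 to 3. The red and blue points are apart for 39 genes, 38 with red above and CENPT with red below.

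**Figure D2:**
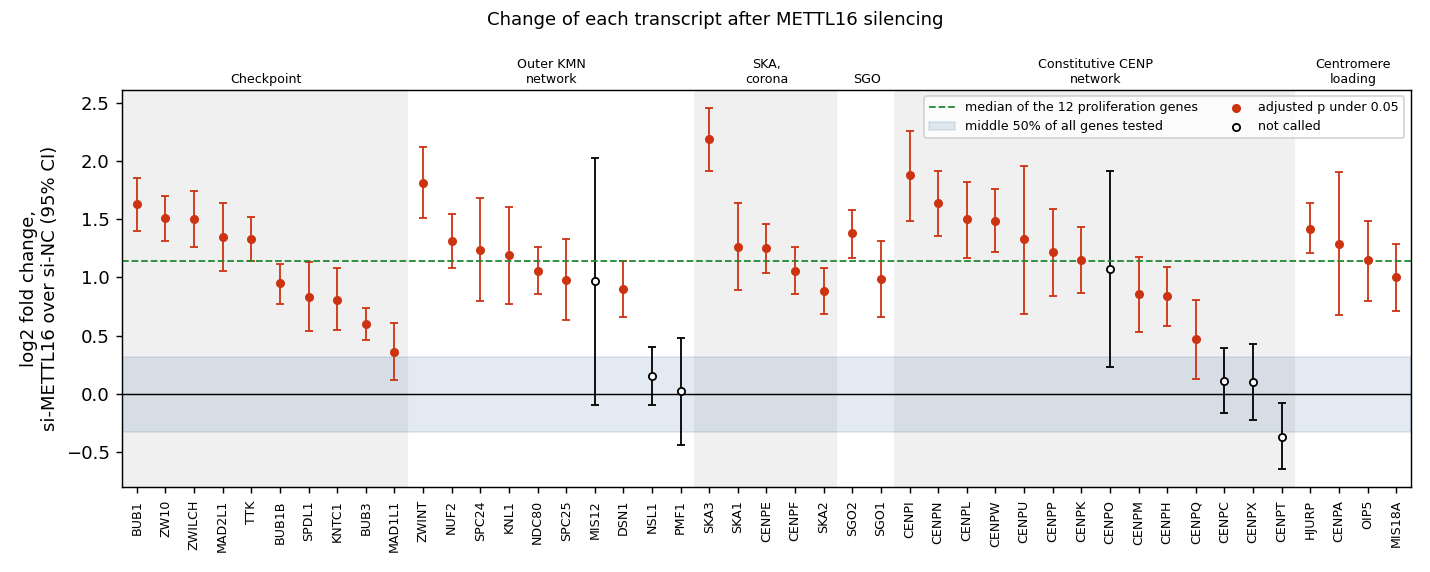
Log2 fold change of si-METTL16 over si-NC from edgeR (vertical axis) for each gene, with 95% confidence intervals as bars, filled red points for adjusted p under 0.05 and open points for genes that did not pass. The green dashed line is the median of the 12 proliferation genes (1.14) and the blue band the middle 50% of all genes tested, and the open points are MIS12, NSL1, PMF1, CENPO, CENPC, CENPX and CENPT.

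All 10 checkpoint genes rose, with a median log2FC of 1.14. BUB1, a checkpoint kinase recruited to KNL1, had 66.7, 85.8 and 76.5 CPM in si-NC and 233, 248 and 227 CPM in si-METTL16. Every silenced sample lay well above every control sample, and the log2FC was 1.63 (SE 0.10, adjusted p = 1.14e-04). At the other end, MAD1L1, which anchors MAD2 at the unattached kinetochore, had 21.4, 17.6 and 20.2 CPM in si-NC and 26.4, 25.6 and 24.1 CPM in si-METTL16. Its groups were apart by a small margin, with a log2FC of 0.36 (SE 0.10, adjusted p = 0.0324), and its call was lost in 6 alternatives, for example without si-METTL16 replicate 1 (adjusted p = 0.0917). In GENCODE v44, 43.2% of its exon bases are also those of a protein-coding gene on the same strand for which no counts were used here. The partner of MAD1L1, MAD2L1, rose by 1.35 and TTK, the kinase MPS1 that starts the signal, by 1.33 on the log2 scale. BUB1B, the inhibitor BUBR1, had a log2FC of 0.95, and BUB3, the adaptor shared by BUB1 and BUB1B, 0.60. Among the RZZ subunits, ZW10 and ZWILCH reached 1.51 and 1.5, whereas KNTC1 reached 0.81 (adjusted p = 0.00168). SPDL1, which brings dynein to the kinetochore, had a log2FC of 0.83.

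In the outer KMN network, 7 of 10 genes rose and 3 did not pass the test, with a median log2FC of 1.02. ZWINT, which binds KNL1 and links it to RZZ, had 15.7, 22.3 and 19.3 CPM in si-NC and 68.4, 67.0 and 65.9 CPM in si-METTL16. The silenced samples were close to each other and far above the controls (log2FC 1.81, SE 0.13, adjusted p = 1.63e-04). All 4 subunits of the NDC80 complex rose, NUF2 by 1.31, SPC24 by 1.24, NDC80 by 1.06 and SPC25 by 0.98 on the log2 scale. KNL1, the scaffold for BUB proteins, had 138, 145 and 90.7 CPM in si-METTL16, with replicate 3 below the others, and 49.1, 53.6 and 60.6 CPM in si-NC. Its log2FC was 1.19 (adjusted p = 0.00251).

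The MIS12 complex, which joins the inner to the outer kinetochore, was less uniform. DSN1 rose, with a log2FC of 0.90 (adjusted p = 7.50e-04), and the other 3 subunits did not pass the test. MIS12 had 17.6, 11.6 and 11.1 CPM in si-NC and 14.6, 47.1 and 17.2 CPM in si-METTL16. Only si-METTL16 replicate 2 lay above all control samples, and the log2FC of 0.97 (95% confidence interval -0.10 to 2.03, adjusted p = 0.139) fell to 0.24 without that library. DERL2, which shares 9.5% of the exon bases of MIS12 on the opposite strand, was also highest in that library among the silenced samples, at 77.1 CPM against 58.9 and 58.7 CPM, and its part was not tested. PMF1 had 17.0, 26.3 and 19.1 CPM in si-NC and 23.0, 16.9 and 23.3 CPM in si-METTL16, overlapping groups with a log2FC of 0.02 (95% confidence interval -0.44 to 0.48, adjusted p = 0.952). The readthrough transcript PMF1-BGLAP, which shares 23.3% of its exon bases, was higher by 0.68 (adjusted p = 0.0205), so reads could be split between them. NSL1 had 33.6, 35.4 and 38.1 CPM in si-NC and 38.5, 44.8 and 35.7 CPM in si-METTL16, again overlapping, with a log2FC of 0.15 (95% confidence interval -0.10 to 0.40, adjusted p = 0.315).

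All 5 genes of the SKA complex and the corona rose, with a median of 1.25. SKA3, a subunit of the complex that keeps NDC80 on moving microtubule ends, changed most of all 45 genes and is placed by the authors at 21153595 to 21176602 of chromosome 13 (GRCh38). Its values were 7.81, 8.54 and 7.53 CPM in si-NC and 33.1, 40.6 and 35.4 CPM in si-METTL16. That is 4.56-fold with a log2FC of 2.19 (SE 0.12, adjusted p = 9.20e-05), and the groups were far apart. SKA2, its partner, had 20.8, 21.3 and 21.9 CPM in si-NC and 41.7, 37.3 and 39.0 CPM in si-METTL16, without overlap and with a log2FC of 0.88 (SE 0.08, adjusted p = 3.83e-04). The intervals of the 2 subunits were 1.92 to 2.46 for SKA3 and 0.69 to 1.08 for SKA2. SKA1 rose by 1.26, CENPE, a plus-end kinesin, by 1.25 and CENPF, a large corona protein, by 1.06 on the log2 scale.

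Both shugoshins rose. SGO2 had 59.4, 72.7 and 68.8 CPM in si-NC and 166, 182 and 174 CPM in si-METTL16, a log2FC of 1.38 (SE 0.09, adjusted p = 1.22e-04). SGO1, the shugoshin of mitotic centromeres, had 9.53, 10.0 and 12.6 CPM in si-NC and 19.6, 23.1 and 21.1 CPM in si-METTL16, a log2FC of 0.99 (SE 0.14, adjusted p = 0.0018). The groups of both genes were apart.

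The 4 centromere loading genes all rose, with a median of 1.22. HJURP, the chaperone of CENPA, had 32.8, 40.5 and 37.1 CPM in si-NC and 96.2, 99.9 and 100 CPM in si-METTL16, closely grouped and far above the controls (log2FC 1.42, SE 0.09, adjusted p = 1.21e-04). MIS18A, which helps to mark the site of loading, had 12, 15.4 and 15.7 CPM in si-NC and 27.9, 29.2 and 29.3 CPM in si-METTL16, also without overlap (log2FC 1.00, SE 0.12, adjusted p = 0.00103). CENPA itself was uneven in the control, at 5.92, 11.3 and 5.70 CPM, and 17.5, 19.7 and 18.8 CPM after silencing, and so had a wider interval (log2FC 1.29, 95% confidence interval 0.68 to 1.91, adjusted p = 0.00821). Of the exon bases of CENPA, 7.1% are shared with SLC35F6 on the same strand, which had more counts over the 6 samples (4022 against 1324). OIP5, the MIS18 subunit also called MIS18-beta, had a log2FC of 1.15. In GENCODE v44, 63.2% of the exon bases of OIP5 are shared with OIP5-AS1 on the opposite strand, which fell (log2FC -1.18, adjusted p = 4.21e-04), and 29.3% with NUSAP1, also on the opposite strand, which rose (log2FC 1.34, adjusted p = 3.99e-04). The counts of both over the 6 samples exceeded those of OIP5, at 14890 and 9728 against 2325.

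In the constitutive centromere network, 10 of 14 genes rose and 4 did not pass, with a median of 1.11 and the widest range of the 6 classes. CENPI, a subunit of the CENP-HIKM complex, had 11.1, 16.6 and 16.5 CPM in si-NC and 50.1, 57.2 and 55.0 CPM in si-METTL16. The silenced samples were all above the controls, with a log2FC of 1.88 (SE 0.16, adjusted p = 3.01e-04). The other HIKM subunits rose less, CENPK by 1.15, CENPM by 0.86 and CENPH by 0.84 on the log2 scale. The CENPA-reading pair CENPN and CENPL reached 1.64 and 1.5, and CENPW, a histone-fold protein, 1.49. Of the CENP-OPQU complex, CENPU and CENPP had log2FCs of 1.33 and 1.22, and CENPQ 0.47, which was close to the threshold (adjusted p = 0.0406) and was lost in 6 alternatives, for example without si-NC replicate 3 (adjusted p = 0.12). Counts of CENPP are low, at 2.85 to 3.65 CPM in si-NC, and 39.9% of its exon bases are shared with IPPK on the opposite strand, which fell (log2FC -0.68, adjusted p = 0.0155). CENPU shares 14.9% of its exon bases with PRIMPOL on the opposite strand. Among the silenced samples both were highest in replicate 2, CENPU at 6.58, 10.6 and 7.23 CPM and PRIMPOL at 4.81, 8.53 and 5.29 CPM. The part of PRIMPOL was not tested.

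CENPO had 275, 348 and 191 counts in si-NC and 825, 471 and 359 counts in si-METTL16. Scaled to CPM, replicate 3 of si-METTL16 lay just below the highest control value (20.5 CPM), so the groups overlap, and the log2FC of 1.07 (95% confidence interval 0.23 to 1.92) missed the threshold (adjusted p = 0.0534). Its value depended on single libraries. Without si-METTL16 replicate 1 the log2FC was 0.65 (adjusted p = 0.144) and without si-METTL16 replicate 3 it was 1.34, which passed (adjusted p = 0.0224). Over all alternatives the adjusted p ran from 0.00496, in the Wald test of DESeq2, to 0.144. Of its exon bases, 27.0% are shared with ADCY3 on the opposite strand, whose log2FC was -0.06.

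CENPC, CENPX and CENPT, the remaining genes of this network, did not pass either. CENPC, which binds CENPA nucleosomes and recruits the MIS12 complex, had 17.8, 19.2 and 17.7 CPM in si-NC and 19.5, 22.4 and 17.2 CPM in si-METTL16, with overlapping groups and a log2FC of 0.11 (95% confidence interval -0.17 to 0.39, adjusted p = 0.498). CENPX had 14.3, 15 and 18.1 CPM in si-NC and 18.7, 14.7 and 17.4 CPM in si-METTL16, overlapping as well, with a log2FC of 0.10 (95% confidence interval -0.23 to 0.43, adjusted p = 0.605). CENPT, which recruits NDC80 by a route separate from CENPC, was the only one of the 45 genes with a negative log2FC and lies on chromosome 16 from 67828157 to 67847811. It had 16.5, 13.6 and 17.2 CPM in si-NC and 12, 12 and 12.7 CPM in si-METTL16. All silenced samples lay below all controls, and the log2FC was -0.37 (95% confidence interval -0.65 to -0.08, adjusted p = 0.0513). Leaving out si-NC replicate 2 was the only alternative in which it passed (log2FC -0.47, adjusted p = 0.0247). On the opposite strand, 10.5% of its exon bases are shared with TSNAXIP1 and 6.7% with THAP11.

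The replicates of si-METTL16 were close to each other for most of the genes. The highest value over the lowest had a median of 1.12 over the 45 genes in si-METTL16 and of 1.27 in si-NC, and of 1.21 over all genes in either group. In si-METTL16, this ratio was at least 2 for MIS12 (3.24) and CENPO (2.52), and at least 1.5 for CENPU, KNL1 and SPC24 as well. Of all genes, 23.6% reached a ratio of 1.5 and 10.6% a ratio of 2 in si-METTL16. In the control group, replicate 1 was the lowest for 31 of the 45 genes, replicate 3 for 11 and replicate 2 for 3, whereas replicate 1 was the lowest for 35.3% of all genes. The proliferation list was lowest in the same library (-0.16 relative to the si-NC mean, against 0.09 and 0.10), and its part was not tested. Without that library, 37 of the 45 genes were called.

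Levels between genes were compared as CPM per kilobase of the MANE Select transcript, the representative transcript of GENCODE v44, because the gene lengths implied by the deposited FPKM were 0.38 to 7.92 times these transcript lengths (median 2.18). On this scale SPDL1 had the highest level in both groups, 44.5 in si-NC and 79.2 in si-METTL16, and CENPP the lowest, 0.38 and 0.884. The order of the others shifted. BUB1 went from the 5th highest level (20.3) to the 2nd (62.8) and CENPW from the 8th (18.6) to the 4th (52.3). CENPX went from the 4th (20.6) to the 18th (22.1) and PMF1 from the 7th (19.5) to the 19th (19.7), at nearly unchanged levels, and BUB3 from the 2nd (28.9) to the 5th (43.7). The levels assume that the MANE Select transcript is the one expressed. By the deposited FPKM the order differed, with BUB3 (23.3 in si-NC and 34.8 in si-METTL16) above SPDL1 (13.1 and 23.1).

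**Figure D3:**
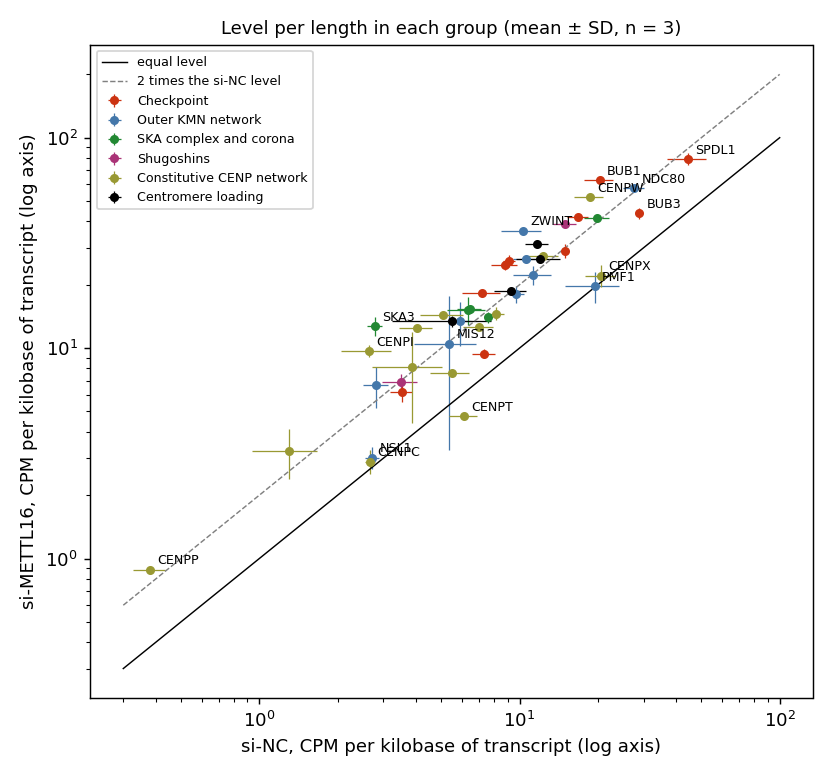
Mean level of each gene in CPM per kilobase of MANE Select transcript in si-NC (horizontal log axis) and si-METTL16 (vertical log axis), with SD over 3 samples as bars and colours for role classes. The solid line marks equal levels and the dashed line 2 times the si-NC level; CENPX, PMF1, NSL1 and CENPC lie near the solid line, CENPT below it, and SKA3 and CENPI above the dashed line.

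Subunits of a complex work together, so the share of each subunit in the summed FPKM of its complex was compared for 35 shares in 11 complexes. For 20 of the 35, the 3 si-METTL16 shares did not overlap the 3 si-NC shares. Among all genes tested, levels were higher without overlap for 25.7% and lower without overlap for 25.2%, and no background was computed for shares. The 20 hold both directions, so both of these percentages apply to them together. Their number is near that background and is not read as a result about the complexes. The shares within a complex add up to a fixed total, so the 35 are not independent. For example, SGO1 and SGO2, summed only with each other, mirror each other and both count among the 20. A two-sided exact permutation test with 3 samples against 3 cannot give a p below 0.1, and adjusted over the 35 shares the smallest value was 0.175, so none passes a threshold of 0.05. In the CENP-TWX complex, CENPW took 75.5%, 79.2% and 76.4% in si-NC and 89.9%, 91.5% and 89.6% in si-METTL16. CENPX went from 18% ± 1.15 (SD, n = 3) to 8.07% ± 0.99 (SD, n = 3) and CENPT from 4.95% ± 0.877 (SD, n = 3) to 1.59% ± 0.12 (SD, n = 3). By MANE Select lengths, the share of CENPW was 41.0% in si-NC and 66.1% in si-METTL16. Those of CENPX were 45.5% and 27.9%, and those of CENPT 13.6% and 6.0%. For CENPX and CENPT, the lengths implied by the FPKM were 7.27 and 7.92 times those of MANE Select. The levels therefore depend on the length used, while the direction was the same. The sum holds only CENPT, CENPW and CENPX.

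SKA3 took 19.4% ± 2.01 of the SKA complex in si-NC and 33.6% ± 4.58 in si-METTL16 (SD, n = 3 each), and SKA2 had 34.2% ± 2.26 and 23.9% ± 0.925 (SD, n = 3 each). In CENP-HIKM, CENPI went from 28.7% ± 4.0 to 43.5% ± 1.79 (SD, n = 3 each), and CENPH from 28.5% ± 2.19 to 20.7% ± 1.60. BUB1 took 21.7% ± 1.68 of the summed BUB1, BUB1B and BUB3 in si-NC and 34.7% ± 0.449 in si-METTL16, whereas the share of BUB1B overlapped between groups (18.9% and 18.8%, exact permutation p = 0.9). KNTC1 had 15% ± 1.21 of RZZ in si-NC and 9.85% ± 1.12 in si-METTL16. In the MIS12 complex, DSN1 had 20.4% ± 0.244 and 28.9% ± 3.15, and NSL1 42.7% ± 3.43 and 35.9% ± 2.17, each without overlap. Lengths from MANE Select changed these percentages. The direction was kept, without overlap, for SKA3, SKA2, CENPI, CENPH, BUB1, KNTC1, DSN1 and NSL1. By those lengths CENPI had 8.71% ± 1.45 in si-NC and 15.1% ± 0.851 in si-METTL16, and NSL1 had 7.37% ± 1.02 and 5.89% ± 0.493. PMF1, the largest share of the MIS12 complex on that scale, had 51.8% ± 6.09 and 39.0% ± 9.65, with overlapping groups. In the NDC80 complex, NUF2 was higher without overlap, at 11.8%, 13.4% and 13.7% in si-NC and 14.7%, 15.7% and 15.3% in si-METTL16, and the other subunits overlapped. NDC80 itself had 54.4% ± 4.05 and 53.6% ± 0.541 (exact permutation p = 0.9). In CENP-OPQU, CENPQ had 69.0% ± 3.31 and 57.8% ± 6.29 without overlap. The CENP-LN subunits CENPL and CENPN overlapped between groups (exact permutation p = 0.4).

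**Figure D4:**
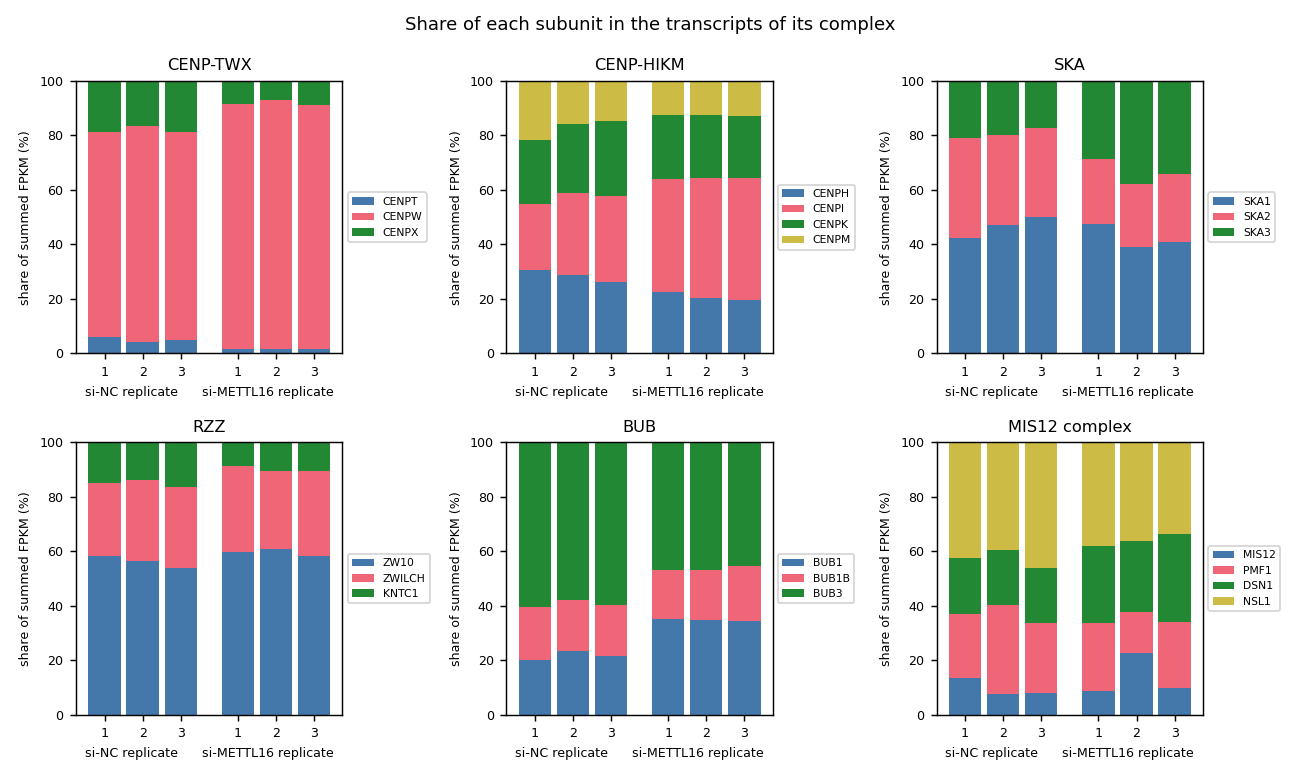
Share of each subunit in the summed FPKM of its complex (vertical axis, percent) in each si-NC and si-METTL16 replicate for 6 complexes, drawn as stacked bars that add up to 100%. The red share of CENPW, the red share of CENPI and the green share of SKA3 are larger in every si-METTL16 sample than in every si-NC sample.

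A list of 30 other genes of the kinetochore, centromere and attachment machinery that are not among the 45 was also read out. Of these, 24 rose, 2 fell and 4 did not pass, against 18.4% higher and 17.5% lower among all genes tested. The median log2FC of the 30 was 0.62, and the list was chosen with earlier results of these data known. The 3 highest were KIF2C, a microtubule-depolymerizing kinesin (1.75, adjusted p = 6.95e-05), CDCA8, a subunit of the chromosomal passenger complex (1.65, adjusted p = 8.34e-05), and AURKB, its kinase (1.58, adjusted p = 6.37e-04). The lowest of those that passed were CHAMP1, which acts in chromosome alignment (-1.73, adjusted p = 0.0443), CENPB, which binds alphoid DNA (-0.38, adjusted p = 0.00586), and SUGT1, a cochaperone in kinetochore assembly (0.24, adjusted p = 0.0406). The value of CHAMP1 rests on uneven controls, with 574, 135 and 646 counts in si-NC against 118, 171 and 103 in si-METTL16, and its groups overlapped. CENPB did not overlap, at 161, 179 and 175 CPM in si-NC and 129, 125 and 140 CPM in si-METTL16.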

How the data were processed

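RNA was measured in 6 PANC-1 samples, grouped by title. The authors deposited raw counts per gene and FPKM values, that is counts scaled by gene length and library total. The submitters' processing notes name HISAT2 2.0.4, StringTie 1.3.0 and GRCh38 (hg38) without saying what each was used for. The counting program, annotation release and use of strand are not given in the sources used here, so reads of genes overlapping on the other strand could be assigned to either. The extraction is described both as TRIzol and as a kit.

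From the counts, genes were filtered with filterByExpr (minimum count 10, minimum total 15), scaled by TMM and tested with the quasi-likelihood functions (glmQLFit, then glmQLFTest) in edgeR 4.0.16 under R 4.3.3 (Benjamini-Hochberg, 0.05), over 15089 genes and group as the only term. limma, named in the methods, was an alternative (3.58.1), as was DESeq2 1.42.0. The scripts were tested on simulated data. The common biological coefficient of variation was 16.5%, and p-values measure only the spread between 3 samples a group. The methods call them biological triplicates. The 27 symbols turned into dates were restored from gene identifiers, and 15 of the 45 genes have the coordinates of GENCODE v44. The members and lists were chosen with earlier results of these data known. By rule, all 45 genes were named, and per-sample values were given for the highest and lowest of each role class and for those that did not pass; KNL1, CENPA and the genes overlapping members were added after seeing values.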

Additional observations from a re-analysis of the deposited data

How the results depend on the processing

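Of 626 values of the 45 genes under 14 alternatives, 606 kept direction (log2FC) and side of the threshold, 12 lost the call, 4 gained it and 4 turned, and 40 of the 45 genes kept both under every alternative. The exceptions were CENPO, CENPQ, CENPT, MAD1L1 and PMF1. PMF1, near 0, lay between -0.11 and 0.22 over the 6 fits that omit a sample, being -0.11 without si-NC replicate 1, -0.04 without si-NC replicate 3, -0.05 without si-METTL16 replicate 1 and -0.06 without si-METTL16 replicate 3. The number of the 45 genes that passed was 36 to 38 over these fits, and was 39 with DESeq2, 36 at an adjusted p under 0.01 and 26 with an absolute log2FC of 1 or more. Over all genes, 3035 passed at an adjusted p under 0.01 and 1172 with an absolute log2FC of 1 or more, as stricter thresholds must lower the count, and 4159 to 4526 when each sample was left out. The median log2 fold change of the 45 was 0.89 with limma on log2(FPKM + 1), which shrinks changes of low genes, and 1.07 to 1.20 when each sample was left out. CENPP and CENPT, with a mean FPKM under 1, were not in the limma fits on FPKM. Samples with the same replicate number shared only the number (correlations of deviations 0.0253, 0.0371 and 0.0298), and with the replicate block 38 of the 45 genes and 5013 of all genes passed, the call of CENPO being gained and that of MAD1L1 lost (adjusted p = 0.0504 from edgeR). Shares of subunits without overlap were 22 by counts and, as an alternative chosen after seeing the data, 18 by MANE Select lengths. With the shorter promoter window, the E2F forms were in 1 member promoter. Depth limits CENPP, CENPU, CENPM and SPC24 most, which had under 8 CPM in the control samples.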
